A study of Mus musculus with 14 samples.

Results

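The thrombospondins and other matricellular proteins are secreted into the extracellular matrix, where they act on cells, growth factors and collagen rather than serving as the structural scaffold. Here they were represented by 10 genes chosen by name, Thbs1, Thbs2, Thbs3, Thbs4, Postn, Sparc, Sparcl1, Tnc, Tnxb and Smoc2. The choice was made with earlier results of these data known, so shares among these genes are not independent support. All 10 were found among the 54532 genes of the deposited count table, and all 10 were among the 16034 genes that had enough counts to be tested. RNA-seq was performed on heart tissue from 14 male C57BL/6J mice, 8 weeks old at the start, with 1 library per mouse. The irradiated mice received 30 Gy of 60Co γ-rays to the chest, and hearts were taken 1 day or 6 weeks later. The groups were Control_1d (non-irradiated, n = 3), IRR_1d (irradiated, n = 3), Control_6w (non-irradiated, n = 4) and IRR_6w (irradiated, n = 4). All 4 groups were wild type, and the RNA came from whole tissue, not from sorted cells. The comparisons ask which of these genes differed with irradiation at each time, and whether the difference was the same at 1 day and at 6 weeks.

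Many matricellular proteins are sparse in the matrix of the resting adult heart and are known to be made more strongly during wound repair, inflammation and scar formation. Fibroblasts make most of them, and endothelial cells, pericytes and platelets also contribute. Thrombospondin-1, the product of Thbs1, binds the receptors CD36 and CD47 and can activate latent TGF-β. Periostin (Postn) and SPARC bind collagen and act in its assembly into fibrils, and periostin is a widely used marker of activated cardiac fibroblasts.

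The libraries held 13336746 to 16837265 counts, and the mitochondrial share of counts lay between 10.4% and 44.2%. Several libraries stood apart. Control_6w replicate 3 held thymus transcripts, with a summed level of 4308 CPM (counts scaled by the library total) over 9 thymus markers against at most 47.5 CPM in the other 13 libraries. This library was also second highest for markers of fat (1218 CPM), Schwann cells (97 CPM) and lung epithelium (38.1 CPM). Its cardiomyocyte marker sum was the lowest of all, at 5599 CPM. IRR_6w replicate 1 was highest for markers of lung epithelium (497 CPM), atrium (3340 CPM) and fat (2165 CPM). IRR_1d replicate 3 was next highest for atrium (2028 CPM), itself a part of the heart. Its fat sum was 622 CPM. It was also highest for tendon markers (89.5 CPM), but 1 gene, Fmod, gave 79.1 CPM of that sum. Control_6w replicate 3, IRR_6w replicate 1 and IRR_1d replicate 3 are the 3 libraries named below as holding other tissue. IRR_1d replicate 1, highest for skeletal muscle markers (29.4 CPM, next highest 6.12 CPM), is not among them. In another set of libraries many weakly expressed genes had no count at all. Of 1835 genes with a median of 2 to 5 CPM, 29.6% were at 0 in Control_1d replicate 1, 20.4% in IRR_6w replicate 3, 8.01% in IRR_6w replicate 4 and 1.58% in Control_6w replicate 1, but at most 0.272% in the others. The heart label was checked against 8 cardiomyocyte markers, none of which was at 0 in any library. Values without these libraries are given beside the results below that they move most.

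Promoter sequences are shown for Postn and Tnc, because these genes had the most similar order of libraries of any member pair and because a RefSeq window (GRCm38.p6) lay within 2 bases of the start given in the count table. Each holds the 250 bases before 1 annotated transcription start and contains no annotated exon. Capitals mark the letters TATAAA in both and GGGCGG in Tnc, searched on both strands. The Postn window is chr3:54360857-54361106 on the plus strand, and the Tnc window is chr4:64047016-64047265 on the minus strand.
Postn: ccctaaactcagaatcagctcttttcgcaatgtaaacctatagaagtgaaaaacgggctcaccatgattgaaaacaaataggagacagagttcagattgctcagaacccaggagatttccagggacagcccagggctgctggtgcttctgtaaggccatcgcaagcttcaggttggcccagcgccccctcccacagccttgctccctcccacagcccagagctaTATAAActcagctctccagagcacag
Tnc: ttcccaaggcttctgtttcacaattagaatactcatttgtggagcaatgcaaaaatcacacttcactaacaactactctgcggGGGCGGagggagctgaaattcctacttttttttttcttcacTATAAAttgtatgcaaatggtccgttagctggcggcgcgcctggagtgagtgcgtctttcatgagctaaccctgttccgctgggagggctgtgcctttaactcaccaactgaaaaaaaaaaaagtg
The TATAAA of Postn began 26 bases before the start, and that of Tnc 126 bases before it. TATAAA, the core of the TATA box, was present in 12.4% of 32851 mouse promoter windows of the same length. The GC box letters GGGCGG, found in the Tnc window and not in that of Postn, were present in 32.7% of them. Windows were matched for 7 of the 10 members. The only window of Sparc lay 3103 bases from its deposited start, with 238 of its 250 bases in exons. The sequence before that start was therefore not searched. TATAAA was also found in Thbs2, 126 bases before its start on the other strand, and GGGCGG in Thbs3 and Thbs4. TGANTCA, the AP-1 motif, was found in Tnxb alone and in 6.75% of all windows, and GGAATG, the MCAT motif, in Thbs4 alone and in 12.6% of all windows. No match of 1 motif overlapped one of another in these windows, and a match describes the sequence only.

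Levels of different genes were compared per length, as FPKM (CPM divided by the deposited gene length in kilobases). Sparc and Sparcl1, which encode the collagen-binding protein SPARC and its relative hevin, led in every group. Mean Sparc was 135 FPKM in Control_1d and 163 FPKM in IRR_1d at 1 day, and 123 FPKM in Control_6w and 448 FPKM in IRR_6w at 6 weeks. Sparcl1 had means of 107, 88.7, 129 and 156 FPKM in the same order, so that it lay above Sparc only in Control_6w, where the libraries of both overlapped. In Control_1d, Smoc2 followed at 13.1 FPKM, Postn at 11.6 and Tnxb at 9.22, and the remaining 5 members were between 0.51 and 6.21 FPKM. In IRR_6w, Thbs1 came next at 72.3 FPKM, followed by Postn at 56 FPKM, and these neighbours overlapped each other. By mean, Tnc was the lowest member in the first 3 groups (0.51, 0.507 and 0.761 FPKM) but not in IRR_6w (3.6 FPKM), where it overlapped with its neighbours Thbs2 and Thbs3. It also overlapped with Thbs3 in Control_1d and Control_6w. Without replicate 3, its mean went from 5.92 to 1.13 CPM in Control_6w and from 3.94 to 1.71 CPM in IRR_1d. The 10 members summed to 290 ± 71.2 FPKM in Control_1d and 335 ± 136 FPKM in IRR_1d (SD, n = 3 each), and to 300 ± 71.4 FPKM in Control_6w and 779 ± 311 FPKM in IRR_6w (SD, n = 4 each). Sparc alone made up 57.5% of the mean sum in IRR_6w.

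**Figure D1:**
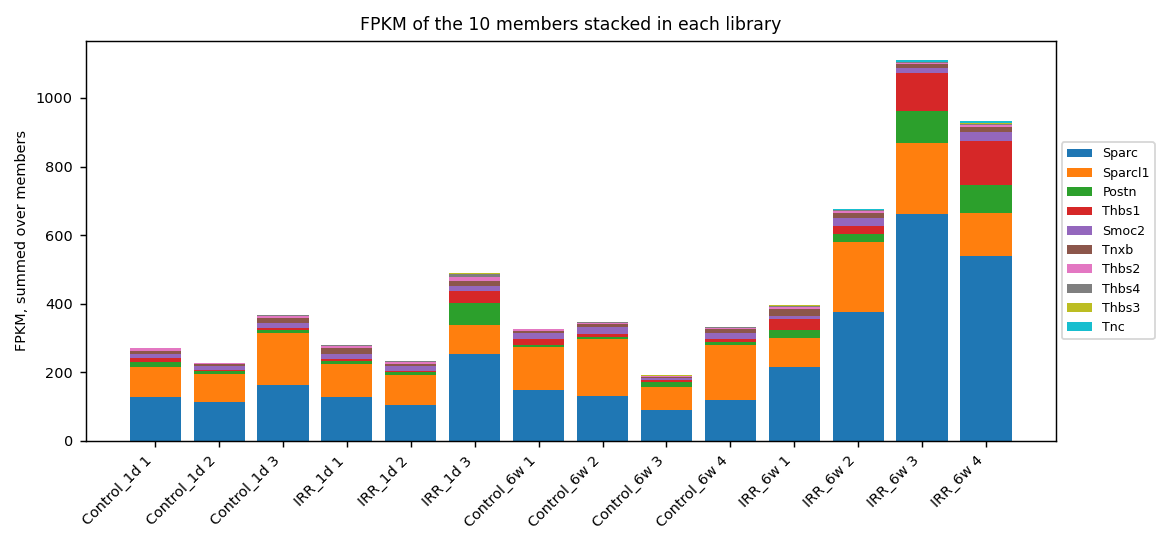
Stacked bars give the FPKM of each of the 10 members in each of the 14 libraries, ordered by group and replicate. The summed FPKM ran from 398 to 1111 in IRR_6w and from 194 to 347 in Control_6w, with Sparc the largest segment of every IRR_6w library.

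At 6 weeks after irradiation, Sparc, Postn, Thbs1 and Tnc had mean levels 3.65 to 6.47 times those of Control_6w, and the first 3 were higher in every IRR_6w library than in any Control_6w library. None passed the call used for differentially expressed genes (a fold change above 2 or below 0.5 and an adjusted p below 0.05 in edgeR's quasi-likelihood test, with Benjamini-Hochberg adjustment over all 16034 genes). Of all genes tested, 0.256% were called in this comparison. With the unadjusted p in place of the adjusted one, these 4 of the 10 members were past the limits, against 3.69% of all genes in the higher direction. All 10 members had a positive log2 fold change, with a median of 0.96 against -0.09 over all genes, of which 43.8% were positive. Because the members were chosen with earlier results of these data known, these shares only describe them. The mitochondrial share of counts was lower in every IRR_6w library (13.9%, 22.2%, 16.7% and 10.4% in replicates 1 to 4) than in any Control_6w library (26.9%, 25.5%, 22.3% and 30.3%), and its part in these differences was not tested. In bulk tissue, more RNA per cell and more cells of the type that makes it cannot be told apart.

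Sparc was the member with the smallest p at 6 weeks. It was at 567, 501, 343 and 448 CPM in Control_6w replicates 1 to 4 and at 816, 1419, 2510 and 2039 CPM in IRR_6w replicates 1 to 4. The groups did not overlap, and the lowest irradiated library was the one that held lung and atrial transcripts. The log2 fold change was 1.60 (SE 0.368, edgeR adjusted p = 0.1). Without IRR_6w replicate 1, Sparc was 1.83 on the log2 scale with an adjusted p of 0.0298 in edgeR, against 0.602% of all genes called higher in that fit.

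Postn encodes periostin, secreted by fibroblasts that have been activated. Control_6w libraries held 51.8, 40.4, 138 and 71.1 CPM, and IRR_6w libraries held 208, 208, 820 and 712 CPM. All 4 irradiated libraries were higher than every control, with replicates 3 and 4 far above replicates 1 and 2. The log2 fold change was 2.48 (SE 0.624, edgeR adjusted p = 0.124).

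Thbs1 was likewise highest in IRR_6w replicates 3 and 4. It was at 107, 65.5, 36.4 and 65.2 CPM in Control_6w and at 188, 139, 655 and 776 CPM in IRR_6w, with no overlap. Among the controls the order differed from that of Postn, which was highest in replicate 3, where Thbs1 was lowest. Its log2 fold change was 2.37 (SE 0.673, edgeR adjusted p = 0.187). Platelets store thrombospondin-1, and the sum of 8 platelet and megakaryocyte markers was 235, 50.9, 49.6 and 38.2 CPM in IRR_6w replicates 1 to 4, against 25.4 to 57 CPM in Control_6w. Of the 7 platelet markers tested, 6 had a positive log2 fold change (median 1.30) and 0 were called. In IRR_6w replicates 3 and 4, where many weakly expressed genes were at 0, 5 and 4 of the 8 markers had no count, against 1 or 2 in the Control_6w libraries. The part of platelets in the Thbs1 levels was not tested.

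Tnc encodes tenascin-C, a protein of embryonic and healing tissue that is low in the normal adult myocardium. It was at 0.442, 1.42, 20.3 and 1.54 CPM in Control_6w and at 9.47, 12.3, 43.9 and 46.3 CPM in IRR_6w. The control value of 20.3 CPM belonged to the library with thymus transcripts and overlapped with the irradiated group, while the other 3 controls lay below all irradiated libraries. The log2 fold change was 2.14 (SE 0.957, edgeR adjusted p = 0.537), and it was 4.25 without that library (adjusted p = 0.0628).

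**Figure D2:**
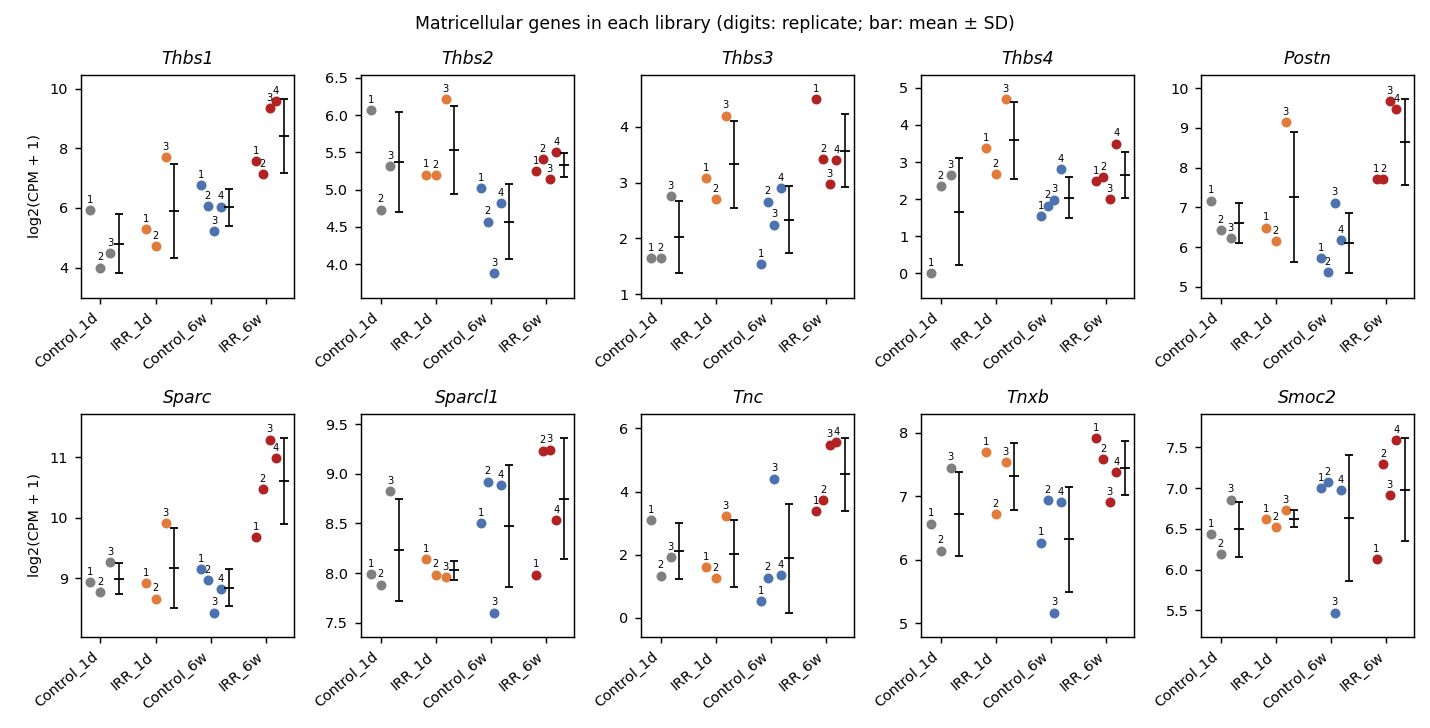
Each panel gives 1 member, with log2(CPM + 1) on the vertical axis and the 4 groups on the horizontal axis. Points are libraries labelled by replicate number, and bars are the mean ± SD on that scale. For Thbs1, Postn and Sparc the 4 IRR_6w points lie above all 4 Control_6w points.

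The size of these differences rested partly on IRR_6w replicates 3 and 4, in which many weakly expressed genes were at 0. Without both, a choice made after seeing the data, the log2 fold changes in edgeR were 1.34 for Postn, 1.09 for Sparc, 1.04 for Thbs1 and 0.88 for Tnc, and adjusted p-values were between 0.851 and 0.966. The calls also differed with the tool and with the set of libraries. DESeq2 on all libraries called Sparc, Postn and Thbs1 (log2 fold changes 1.61, 2.47 and 2.38, adjusted p = 0.00127, 0.00418 and 0.0135), against 1.88% of the genes it tested called higher. With edgeR, without the 3 libraries that held other tissue, the calls were Sparc (1.66, adjusted p = 0.0089), Postn (3.06, adjusted p = 0.00539) and Tnc (4.53, adjusted p = 0.009), against 0.998% of all genes called higher.

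**Figure D3:**
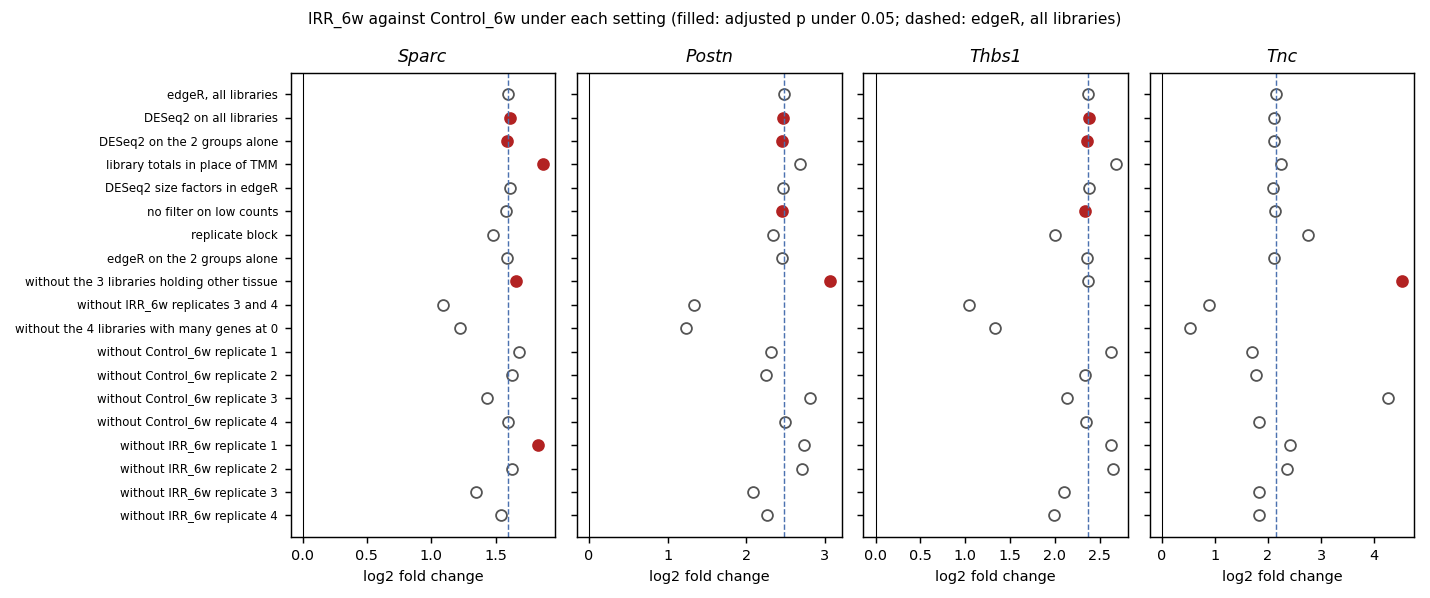
Each panel gives the log2 fold change of 1 gene in IRR_6w against Control_6w, and filled points have an adjusted p below 0.05. Each way of computing it has 1 row, except that fits leaving out a single 1-day library are not drawn. Every value is above 0, and the lowest are 1.09 for Sparc and 1.04 for Thbs1 without IRR_6w replicates 3 and 4, and 1.23 for Postn and 0.53 for Tnc without the 4 libraries with many genes at 0.

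Sums of cell markers were compared between the same groups, and in each of the lists given here 0 genes were called. The sum of 6 markers of activated fibroblasts, none of them a member, was 174, 235, 605 and 557 CPM in IRR_6w replicates 1 to 4 and 96.3 to 206 CPM in Control_6w, highest in the 2 libraries with the most Postn, Thbs1 and Tnc. Of its 6 genes, 5 had a positive log2 fold change (median 1.12), and 1 marker was at 0 in Control_6w replicate 1. The sum of 8 general fibroblast markers overlapped, at 2186 to 3795 CPM against 1328 to 3493 CPM, with a median log2 fold change of 0.11. The sum of 8 macrophage markers did not overlap, at 540 to 804 CPM in IRR_6w and 164 to 347 CPM in Control_6w. All 8 cardiomyocyte markers had a negative log2 fold change (median -0.74), while their sums overlapped. The part of these markers in the results for the members was not tested.

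The other thrombospondins were weaker and differed less at 6 weeks. Thrombospondin-2 limits vessel growth, and Thbs2 was at 31.4, 22.8, 13.7 and 27.3 CPM in Control_6w and at 37, 41.4, 34.4 and 44.5 CPM in IRR_6w. The groups did not overlap in CPM, and the log2 fold change was 0.45 (SE 0.308, edgeR adjusted p = 0.731). Thbs3, which encodes a pentameric thrombospondin, was at 1.91, 5.32, 3.75 and 6.47 CPM in Control_6w and at 21.6, 9.71, 6.82 and 9.56 CPM in IRR_6w, also without overlap. Its log2 fold change was 1.18 (SE 0.561, edgeR adjusted p = 0.578), and its highest value was in the library with lung and atrial transcripts, without which it was 0.74. Thbs4, known to be induced in the stressed heart, overlapped between the groups, at 1.91 to 6.04 CPM in Control_6w and 3 to 10.3 CPM in IRR_6w (log2 fold change 0.48, SE 0.919, edgeR adjusted p = 0.915). Thus the CPM of 5 members (Sparc, Postn, Thbs1, Thbs2 and Thbs3) were higher in every IRR_6w library than in any Control_6w library, against 6.63% of all genes tested. When the library totals were scaled by edgeR's TMM factors, 3 members (Sparc, Postn and Thbs1) remained without overlap, against 4.08% of all genes.

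Sparcl1, Smoc2 and Tnxb overlapped between the groups and did not pass the test at 6 weeks. Hevin, the product of Sparcl1, is made in large amounts by endothelial cells and pericytes, and SMOC2 is a calcium-binding relative of SPARC. Sparcl1 was at 362, 484, 193 and 473 CPM in Control_6w and at 252, 602, 606 and 370 CPM in IRR_6w, with wide overlap (log2 fold change 0.01, SE 0.394, edgeR adjusted p = 0.996). Smoc2 ranged from 43.4 to 134 CPM in Control_6w and from 69.2 to 191 CPM in IRR_6w, again with overlap (log2 fold change 0.03, SE 0.383, edgeR adjusted p = 0.987). In Sparcl1 and in Smoc2 the lowest control was the library with thymus transcripts and the lowest irradiated library was the one with lung and atrial transcripts. Without the 3 libraries that held other tissue, both had a log2 fold change of -0.04. Tnxb encodes tenascin-X, an organiser of collagen fibrils in loose connective tissue. It was at 76.1, 122, 34.9 and 119 CPM in Control_6w and at 240, 191, 119 and 165 CPM in IRR_6w, overlapping at a single irradiated library (log2 fold change 0.74, SE 0.421, edgeR adjusted p = 0.668).

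At 1 day after irradiation, 0 of the 10 members were called, against 0.0249% of all genes. The median log2 fold change of the members was 0.30 against 0.06 over all genes, and 8 of 10 were positive, against 55.1% of all genes. DESeq2 on all libraries also called 0 members, against 0.191% of the genes it tested. With the unadjusted p, Thbs3 was the 1 member past the limits, against 1.56% of all genes in the higher direction. It was at 2.14, 2.12 and 5.78 CPM in Control_1d and at 7.44, 5.49 and 17.4 CPM in IRR_1d, with a slight overlap (log2 fold change 1.44, SE 0.654, edgeR adjusted p = 1). Without IRR_1d replicate 3, Thbs3 was at 0.93 on the log2 scale. Thbs4 was the only member whose CPM did not overlap, against 7.28% of all genes, and with TMM factors Thbs3 did not overlap either, against 6.52% of all genes. Thbs4 was at 0, 4.09 and 5.24 CPM in Control_1d and at 9.41, 5.35 and 25 CPM in IRR_1d. The library at 0 was the one with the largest share of weakly expressed genes at 0. By counting error alone a count of 0 allows up to 3 counts, or 0.208 CPM there. With 29.6% of the genes with a median of 2 to 5 CPM at 0 in that library, this limit does not bound the level of Thbs4. The fold change (log2 1.80, SE 1.09, edgeR adjusted p = 1) was 1.21 without that library and 1.09 without IRR_1d replicate 3. Marker sums of tendon, cartilage and skeletal muscle were also higher in every IRR_1d library than in any Control_1d library. They were 9.24 to 89.5, 2.08 to 14 and 1.95 to 29.4 CPM in IRR_1d. In Control_1d they were 3.8 to 7.05, 0 to 1.75 and 0 to 1.14 CPM. The thymus sum was lower without overlap, and the other marker sums overlapped. The part of these tissues in the levels of the members was not tested.

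In CPM, IRR_1d replicate 3 was the highest IRR_1d library for 8 members, all but Sparcl1 and Tnxb. With TMM factors it was not the highest for Smoc2 either (102, 112 and 101 in IRR_1d replicates 1 to 3). Postn was at 143, 84.9 and 73.4 CPM in Control_1d and at 88.9, 70.2 and 562 CPM in IRR_1d, so that the other 2 irradiated libraries lay within or below the control range. The log2 fold change, 1.12 with an SE of 0.691 (edgeR adjusted p = 1), became -0.29 without that library. Thbs1 was at 59.6, 15 and 21.4 CPM in Control_1d and at 38.2, 25.2 and 208 CPM in IRR_1d. The log2 fold change, 1.45 with an SE of 0.756 (edgeR adjusted p = 1), became 0.11 without that library. Sparc was at 489, 435 and 616 CPM in Control_1d and at 483, 403 and 962 CPM in IRR_1d, with overlap (log2 fold change 0.14, SE 0.415, edgeR adjusted p = 1). In all 3 genes a single irradiated library was high, and without it Sparc was at -0.21 on the log2 scale. This library had the highest atrial, tendon and fat marker sums of the 1-day libraries (2028, 89.5 and 622 CPM), the highest general fibroblast sum (4176 CPM) and smooth muscle and pericyte sum (2486 CPM) of all 14 and the lowest cardiomyocyte sum at 1 day (16623 CPM), and it was also highest at 1 day for platelet markers (175 CPM, against at most 91.4 CPM in the others) and activated fibroblast markers (289 CPM, against at most 189 CPM). The part of these cells and tissues in its levels was not tested.

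**Figure D4:**
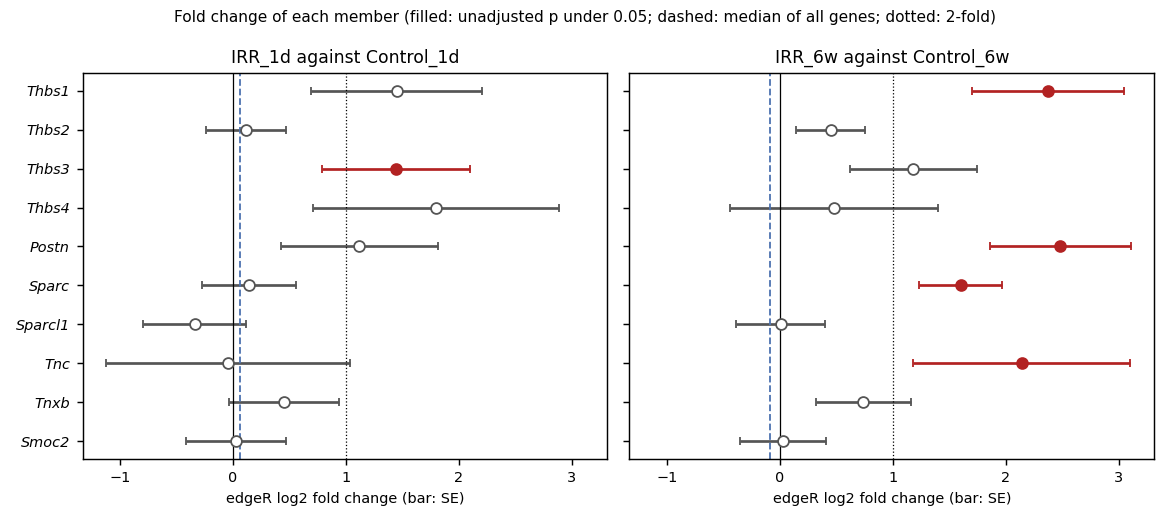
Points give the edgeR log2 fold change of each member with its SE, at 1 day (left) and 6 weeks (right), and filled points have an unadjusted p below 0.05. At 6 weeks Thbs1, Postn, Sparc and Tnc lie between 1.60 and 2.48, while Sparcl1 and Smoc2 lie at 0.01 and 0.03.

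Whether the effect of irradiation differed between the 2 times was tested as an interaction, and 0 members were called in edgeR, against 0% of all genes, and 0 in DESeq2, against 0.223% of the genes it tested. With the unadjusted p, Sparc was the 1 member past the limits, against 1.98% of all genes in the higher direction. It had the smallest p of the members, with a change of 1.46 on the log2 scale (SE 0.552, edgeR adjusted p = 0.99). For Postn the change was 1.36 (SE 0.907) and for Tnc 2.17 (SE 1.43), with adjusted p = 0.99 for both. These sizes moved with single libraries, and leaving out 1 library at a time gave 0.90 (without IRR_1d replicate 2) to 2.76 (without IRR_1d replicate 3) for Postn and 1.56 (without Control_1d replicate 1) to 4.29 (without Control_6w replicate 3) for Tnc. Without the 3 libraries that held other tissue, Postn was at 3.35 (edgeR adjusted p = 0.0628) and Tnc at 5.61 (adjusted p = 0.0544), and without the 4 libraries with many genes at 0 they were at 0.01 and -0.02. A difference between 1 day and 6 weeks was therefore not shown for any member.

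Between the irradiated groups, 0 members were called in IRR_6w vs. IRR_1d, against 0.0374% of all genes. With the unadjusted p, Tnc (2.56, SE 1.09), Thbs1 (2.02, SE 0.739) and Sparc (1.17, SE 0.4) were past the limits, against 3.06% of all genes in the higher direction, with edgeR adjusted p-values of 0.825, 0.734 and 0.643. Tnc was the only member whose CPM did not overlap between these groups (1.39 to 8.4 CPM in IRR_1d and 9.47 to 46.3 CPM in IRR_6w), against 10.7% of all genes, and with TMM factors it overlapped too, which left 0 members without overlap, against 5.47% of all genes. DESeq2 on all libraries called 0 members, against 0.966% of the genes it tested. Without the 3 libraries that held other tissue, edgeR called Sparc (1.76), Postn (2.43), Thbs1 (3.61) and Tnc (3.89), against 0.565% of all genes called higher. Without IRR_6w replicates 3 and 4, the log2 fold changes were 0.66 for Sparc, -0.36 for Postn, 0.69 for Thbs1 and 1.30 for Tnc, and 0 members were called, against 0.024% of all genes called higher in that fit. The mitochondrial share did not overlap between the irradiated groups (10.4% to 22.2% in IRR_6w, 28.1% to 40.2% in IRR_1d). Marker sums of macrophages (540 to 804 against 236 to 403 CPM) and endothelium (1758 to 2288 against 1024 to 1395 CPM) were higher in IRR_6w without overlap. So were those of thymus and lung epithelium, and the part of all these in the results was not tested. Between the non-irradiated groups, 0 members were called in edgeR, against 0% of all genes, and 0 were past the limits with the unadjusted p, against 3.75% of all genes. DESeq2 on all libraries also called 0, against 0.13% of the genes it tested. Thbs2 had the smallest p there, at 66.1, 25.6 and 38.8 CPM in Control_1d and 13.7 to 31.4 CPM in Control_6w (log2 fold change -0.91, SE 0.33, edgeR adjusted p = 0.902). The CPM of 0 members were lower without overlap in Control_6w, against 1.03% of all genes, and with TMM factors Thbs2 was the 1 member that was, against 2.53% of all genes. These comparisons share their groups with those at 1 day and at 6 weeks.

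The members fell into different orders over the 14 libraries, described here by Spearman's rho of TMM-scaled levels, with the libraries sharing groups and tissue content. Postn and Tnc were the most similar pair (rho 0.916, Pearson's r 0.847), followed in rho by Thbs3 and Tnxb (r 0.713) and by Sparcl1 and Smoc2 (rho 0.763, r 0.79). Without the 3 libraries that held other tissue (11 left), rho was 0.927, 0.809 and 0.545 for these pairs, and without IRR_6w replicates 3 and 4 (12 left) it was 0.867, 0.783 and 0.951. Over all 14 libraries Sparc and Sparcl1, relatives in sequence, had a rho of 0.345, and Postn and Sparcl1 one of -0.349. Thbs1 and Thbs2, the 2 trimeric thrombospondins, had a rho of -0.0989. Among all other tested genes, those with the order most like Postn were Oas3 and Slfn4 (rho 0.96 each), both interferon-induced genes, and Slfn8 (0.916). Oas3 was also among the 3 most like Tnc (rho 0.93), after Dock8 (0.93). Those most like Sparcl1 were Pdgfb (0.96), Cdh5, which encodes VE-cadherin of endothelial junctions (0.947), and Efnb1 (0.943). Thbs3 was most like Cd68, a macrophage marker (0.956), Ptpn14 (0.956) and the thrombospondin receptor Lrp1 (0.938). Nearest to Thbs1 were Arhgef28 (0.938), Carhsp1 (0.908) and Gpr176 (0.906), and nearest to Sparc were Ppfia4 (0.921), the collagen-modifying enzyme P3h1 (0.908) and Tor3a (0.899). Vtn, which encodes vitronectin, was nearest to Smoc2 (0.938), followed by Hspa12b (0.916) and Vwa7 (0.912). For Thbs2 (Runx1t1), Thbs4 (Kap) and Tnxb (Fam171a2) the highest rho was 0.868, 0.934 and 0.921. Between each member and its 3 nearest genes, rho was 0.8 to 0.964 without the 3 libraries and 0.832 to 0.972 without IRR_6w replicates 3 and 4.

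**Figure D5:**
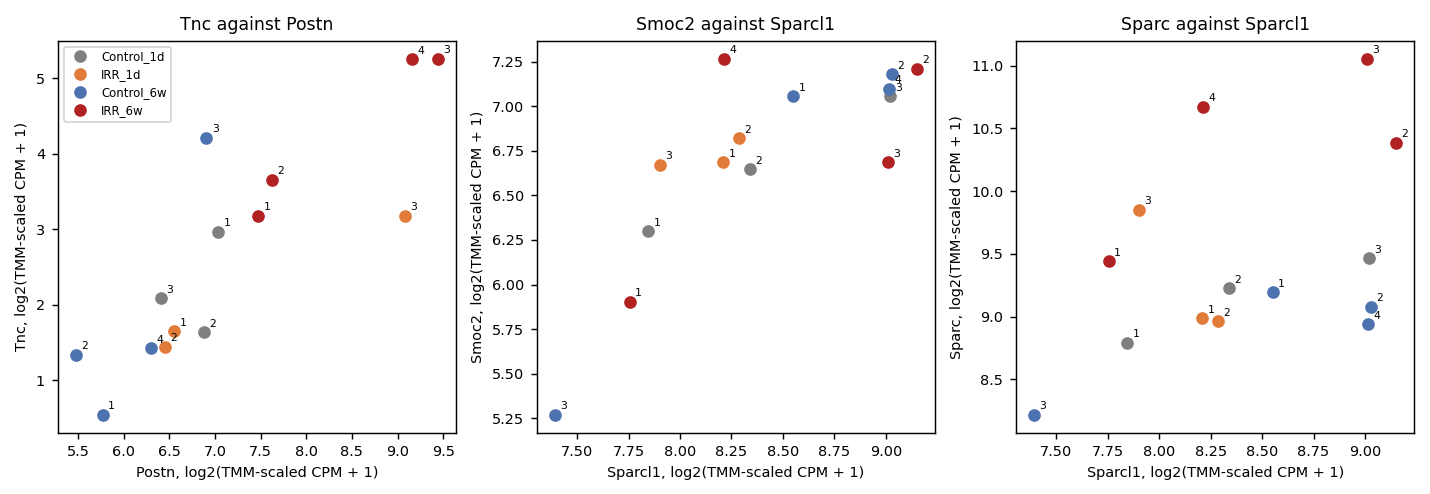
Panels plot 1 member against another over the 14 libraries, as log2(TMM-scaled CPM + 1), with colours for groups and digits for replicates. Postn and Tnc increase together, with IRR_6w replicates 3 and 4 highest in both, as do Sparcl1 and Smoc2, with Control_6w replicate 3 lowest in both, whereas Sparc and Sparcl1 follow separate orders.

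The spread of the members within groups also differed. The SD of log2 CPM within groups, pooled over the 4 groups, was 0.462 for Thbs2 and 0.525 for Sparc, below the median of 0.663 over all genes tested, and 1.58 for Thbs4, 1.44 for Tnc and 1.06 for Thbs1, above it. The value for Thbs4 rested on Control_1d replicate 1, where it had no count, and without that library its SD was 0.727, below 1.48 for Tnc and 1.06 for Thbs1. Of all genes tested, 40.9% then had a larger spread than Thbs4 and 11.2% a larger one than Tnc.

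Other genes of the same class were taken from a list of 18 matricellular genes, which held the CCN family, osteopontin (Spp1), Comp, Fstl1 and the SPOCK proteoglycans, of which 14 had enough counts to be tested. At 6 weeks 0 were called in edgeR, 4 were past the limits with the unadjusted p and DESeq2 on all libraries called 2, against the 0.256%, 3.69% and 1.88% of all genes given above. The median log2 fold change was 0.71, with 12 of 14 positive, against -0.09 and 43.8% over all genes. This list too was chosen with earlier results of these data known, so its shares only describe it. Those with the smallest p were Fstl1 (1.31, SE 0.375, edgeR adjusted p = 0.191), Ccn5, listed as Wisp2 (2.06, SE 0.61, adjusted p = 0.217) and Ccn2, the connective tissue growth factor, listed as Ctgf (1.68, SE 0.562, adjusted p = 0.323). Ccn5 was called without Control_1d replicate 1 (2.06, adjusted p = 0.0456), in a fit that called 0.36% of all genes higher, and in no other fit with a library left out (edgeR adjusted p = 0.217 to 0.623). Fstl1 and Ccn5 did not overlap between the groups, with means of 149 ± 44.2 and 447 ± 160 CPM for Fstl1 and 4.54 ± 0.891 and 22 ± 7.54 CPM for Ccn5 in Control_6w and IRR_6w (SD, n = 4 each). At 1 day 0 were called in edgeR or DESeq2, against 0.0249% of all genes in edgeR and 0.191% of the genes tested in DESeq2. With the unadjusted p, 3 were past the limits, against 1.56% of all genes in the higher direction. The median was 0.85 with 13 of 14 positive, against 0.06 and 55.1% over all genes. Those with the smallest p were Comp (3.12, SE 1.02), Ccn3, listed as Nov (4.33, SE 1.54) and Spock2 (1.62, SE 0.737), each with an edgeR adjusted p of 1. Ccn3 had means of 2.54 ± 2.37 and 64.4 ± 99.3 CPM in Control_1d and IRR_1d (SD, n = 3 each), and Comp had means of 2.25 ± 1.76 and 21.2 ± 23.3 CPM, so that the SD exceeded the mean in the irradiated group for both. Without IRR_1d replicate 3, the log2 fold changes were 1.38 for Ccn3 and 1.91 for Comp. Tendon and cartilage marker sums were also higher in every IRR_1d library than in any Control_1d library, with median log2 fold changes of 3.02 and 2.27. The part of these tissues in the results for this list was not tested.

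Receptors for these proteins were described from a list of 21 genes, mostly integrins, CD36, CD47 and LRP1, all of which were tested. At 6 weeks 0 were called in edgeR, 3 were past the limits with the unadjusted p and DESeq2 on all libraries called 1. The median log2 fold change was 0.51, with 17 of 21 positive, against the same all-gene values as for the matricellular list at 6 weeks. The receptor list was likewise chosen with earlier results of these data known. Itgb3, the β subunit of the αv integrin that binds thrombospondin-1 and periostin, had the smallest p (2.33, SE 0.602, edgeR adjusted p = 0.136), at 6.17 ± 2.9 CPM in Control_6w and 36.2 ± 15.9 CPM in IRR_6w (SD, n = 4 each), without overlap. Its partner Itgav (1.12, SE 0.395, adjusted p = 0.369) overlapped, and Lrp1 (1.00, SE 0.397, adjusted p = 0.456) did not. Without the 3 libraries that held other tissue, Lrp1 was at 0.47 and Itgb3 at 2.48, and without IRR_6w replicates 3 and 4 Itgav was at 0.38. At 1 day 0 were called in edgeR or DESeq2 and 3 were past the limits with the unadjusted p, with a median of 0.36 and 16 of 21 positive. The 3 past the limits were Itga8, Lrp1 and Sdc1 (1.11, SE 0.461), the last named outside the rule after its value was seen. The smallest p belonged to Itga6, which did not reach the fold limit (-0.89, SE 0.332), Itga8 (3.32, SE 1.24) and Lrp1 (1.20, SE 0.46), each with an edgeR adjusted p of 1. Over all genes the median was 0.06, 55.1% were positive and 1.56% were past the unadjusted limits in the higher direction. EdgeR called 0.0249% of all genes, and DESeq2 called 0.191% of the genes it tested. Without IRR_1d replicate 3, Itga8 was at 0.65 and Lrp1 at 0.88 on the log2 scale.

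On GRCm38, the spans given in the count table place Thbs1 at chr2:118111876-118127133, Thbs2 at chr17:14665500-14694235, Thbs3 at chr3:89215180-89226837, Thbs4 at chr13:92751590-92794818 and Postn at chr3:54361109-54391037. Sparc lies at chr11:55394500-55423183, Sparcl1 at chr5:104079111-104113733, Tnc at chr4:63959785-64047015, Tnxb at chr17:34670535-34719815 and Smoc2 at chr17:14279506-14404790. Thbs2 and Smoc2 are neighbours on chromosome 17. Counts are per gene over all its exons. Exons of 4 members overlapped those of a gene on the other strand, namely 318 bases of Thbs3 with Mtx1 (6.59% of its exonic bases), 208 of Thbs1 with Gm29233 (3.42%), 176 of Tnc with 8030451A03Rik (2.26%) and 3 of Tnxb with Cyp21a2-ps. Whether counting used the strand is not given in the sources used here, so reads from these stretches cannot be assigned with certainty. Tnxb also has a partial copy on the same chromosome, Tnxa, and reads shared by both could be split or dropped in counting.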

How the data were processed

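Heart RNA from 14 mice was sequenced, and the authors deposited 1 table of raw read counts per gene, with gene symbols, spans and lengths. Per the labels and the study's methods, reads were checked with FastQC 0.11.8, trimmed with Trim Galore 0.6.1, aligned with STAR 2.5.0a to mm10 and counted with HTSeq. Strandedness and annotation release are not given in the sources used here, but the spans and exonic lengths of all 10 members equal those of GENCODE M21. The counts do not include molecular identifiers. The limit given for a count of 0 takes in counting error alone. It does not cover whatever left many weakly expressed genes at 0 in some libraries.

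The 10 members and the gene lists were chosen with earlier results of these data known. The counts were tested with edgeR 4.0.16 (R 4.3.3), using 1 model of the 4 groups, TMM factors, a filter on low counts that kept 16034 of 54532 genes, and quasi-likelihood tests with Benjamini-Hochberg adjustment. SE is the log2 fold change divided by the square root of the F statistic. CPM was computed from library totals, which were 13336746 to 16837265, and FPKM also from the deposited gene length. The pipeline was tested on simulated data in which 200 genes were changed. DESeq2 1.42.0, other scalings, filters and sets of libraries, unadjusted p-values and a replicate block were tried as alternatives. No pair of replicates held the same counts.

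Named genes were all members, the 3 genes with the smallest p per list and comparison, and the tested genes whose levels had the highest Spearman correlation with each member over 14 libraries (log2, prior count 2). Promoter windows were read from a RefSeq table on GRCm38.p6. Sequences of Thbs1, Sparcl1 and Smoc2 were not used here.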

Additional observations from a re-analysis of the deposited data

Results flagged for a closer look

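In Control_6w, 2 members had a library far from the other 3. Tnc was at 20.3 CPM in replicate 3 and at 0.442 to 1.54 CPM in the others, and the gap was 0.945 of the whole range, above Dixon's 95% limit for 4 samples. Smoc2 was at 43.4 CPM in the same library and at 125 to 134 CPM in the others, a gap of 0.898 of the range. Both values are from the library that held thymus transcripts and was second highest for fat markers. The part of these tissues in the 2 values was not tested. The limit is passed by chance in about 1 of 20 groups, and 20 groups of 4 (10 members in Control_6w and IRR_6w) were examined.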

How the results depend on the processing

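At 6 weeks, 0 members were called in edgeR, whereas the unadjusted p gave 4, DESeq2 gave 3 on all libraries and 3 on the 2 groups alone (1.9% of all genes tested called higher), library totals in place of TMM gave 1 (Sparc, 0.486% of all genes), no filter on low counts gave 2 (Postn and Thbs1, 0.343% of all genes), and leaving out the 3 libraries that held other tissue gave 3. Leaving out 1 library at a time gave 0 to 1, with Sparc called without IRR_6w replicate 1 (0.602% of all genes) and Postn without IRR_1d replicate 3 (0.319%). In IRR_6w vs. IRR_1d, the unadjusted p gave 3, DESeq2 on the 2 groups alone gave 1 (Tnc, 2.06% of all genes) and leaving out the 3 libraries gave 4. The unadjusted p gave 1 at 1 day (Thbs3) and 1 for the change in effect (Sparc). The cause of these differences was not tested. With a replicate block, 0 members were called in any comparison, against 0% to 0.0811% of all genes called higher. The replicate numbers showed little sign of pairing the samples. Of 19 same-numbered pairs, 3 had a correlation above 0.1 (range -0.364 to 0.4217), and 3 libraries were closest to their own number. Other differences between libraries could mask a pairing, so its absence was not shown. Over 1180 alternative values of the members' log2 fold changes, 19 became called, 90 uncalled ones changed sign and 0 called ones did. Genes called at 6 weeks numbered 41 in edgeR and were 344 in DESeq2 on all libraries, 15 with the replicate block, 871 with the unadjusted p, and 0 without IRR_6w replicates 3 and 4 or without any 1 of IRR_6w replicates 3 and 4 and Control_6w replicates 1 and 2. Scaling by library totals moved the median of all genes by 0.23 at 6 weeks and by 0.32 in IRR_6w vs. IRR_1d. Thbs4, Thbs3 and Tnc had the lowest counts (0 to 780 per library). The alternatives without IRR_6w replicates 3 and 4 and without the 4 libraries with many genes at 0 were chosen after seeing the data, and neither called a member. Correlations and spreads with libraries left out were also chosen after seeing the data.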
